A study of Mus musculus with 65 samples.

Results

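The 50 genes described here encode the axon guidance ligands and receptors among the 25239 genes of a read-count table from mouse ventral neural progenitors (NPs). They were taken by name from the Slit, Robo, Dcc, Unc5, neogenin, repulsive guidance molecule (RGM), semaphorin, neuropilin, plexin, ephrin and Eph families. All 50 passed the minimum mean of 10 normalised reads and were tested. HM1 mouse embryonic stem (ES) cells, a single line, were differentiated independently for each replicate to neuromesodermal progenitors (NMPs) on day 3, taken before any SAG. The cells then received retinoic acid with 0, 10, 100 or 500 nM SAG, a small molecule that switches on Smoothened and so stands in for Sonic hedgehog (Shh). On days 4, 5 and 6 NPs were fixed, stained for transcription factors and sorted, with SOX2 in every gate. The p3 gate took NKX2.2 without OLIG2, and pMN took OLIG2 without NKX2.2, both at 100 and 500 nM SAG. The p2 gate took NKX6.1 with PAX6 at 10 and 100 nM, and p0-1 took PAX6 without NKX6.1 at 0 and 10 nM. The 65 libraries made 25 groups, 17 of them with 3 libraries, 6 with 2 and 2 with 1. Cell types were compared over days 5 and 6, where p3 and pMN had 11 libraries each and p2 and p0-1 had 12 each.

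Growing axons read secreted and membrane-bound cues through receptors on their tips. Slits repel axons through Robo receptors, netrin attracts through DCC and repels through UNC5, semaphorins act through plexins and neuropilins, and ephrins act through Eph receptors on touching cells. In the ventral spinal cord the floor plate and the progenitors beside it make Slits and netrin, which guide commissural axons across the midline. Many of these receptors are also made by dividing progenitors.

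Libraries held 7615114 to 13484815 reads and 9718 to 15963 genes with a read. Values are normalised read counts, the read count divided by a size factor of the library, so that 1 read was worth 0.717 to 1.359. On days 5 and 6 the summed p3 markers Nkx2-2, Nkx2-9 and Foxa2 reached 1478 to 3841 in p3 and at most 1400 elsewhere, and the p0-1 markers Dbx1 and Dbx2 reached 925.2 to 3475 in p0-1 and at most 616.3 elsewhere. The pMN markers Olig2 and Olig1 were at 1404 to 7381 in pMN, but up to 2168 in p3 and 1802 in p2. Of the guidance genes, 19 were above 0 in every library and 31 were at 0 in at least 1. A library had 2 to 20 of them at 0, with a median of 7. The 4 libraries with the fewest genes detected were day 4 p3 at 100 nM (replicate 3), day 6 p3 at 100 nM (replicate 2), day 6 p2 at 100 nM (replicate 3) and day 5 p3 at 100 nM (replicate 2). In these bulk samples, fewer cells making a transcript and less of it per cell cannot be told apart.

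Levels of different genes were compared as mean normalised reads per kb of exon, over days 5 and 6. Unc5a, a netrin receptor, was highest or next to highest in every cell type, at 656 per kb in p0-1, 594 in p2, 575 in pMN and 745 in p3. Slit1 stood beside it in p3 at 752 per kb, and Slit3 in pMN at 475 per kb. Efna5, a membrane-anchored ephrin, lay between 425 per kb in pMN and 575 per kb in p2. Sema5b, a transmembrane semaphorin, lay between 363 per kb in pMN and 564 per kb in p0-1. Plxnb2, the plexin with the highest level here, lay between 294 per kb in p2 and 381 per kb in p0-1. The order was different in NMP, where the Eph receptor Epha2 led at 548 per kb, followed by Slit3 at 448 and Ephb4 at 352.

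**Figure D1:**
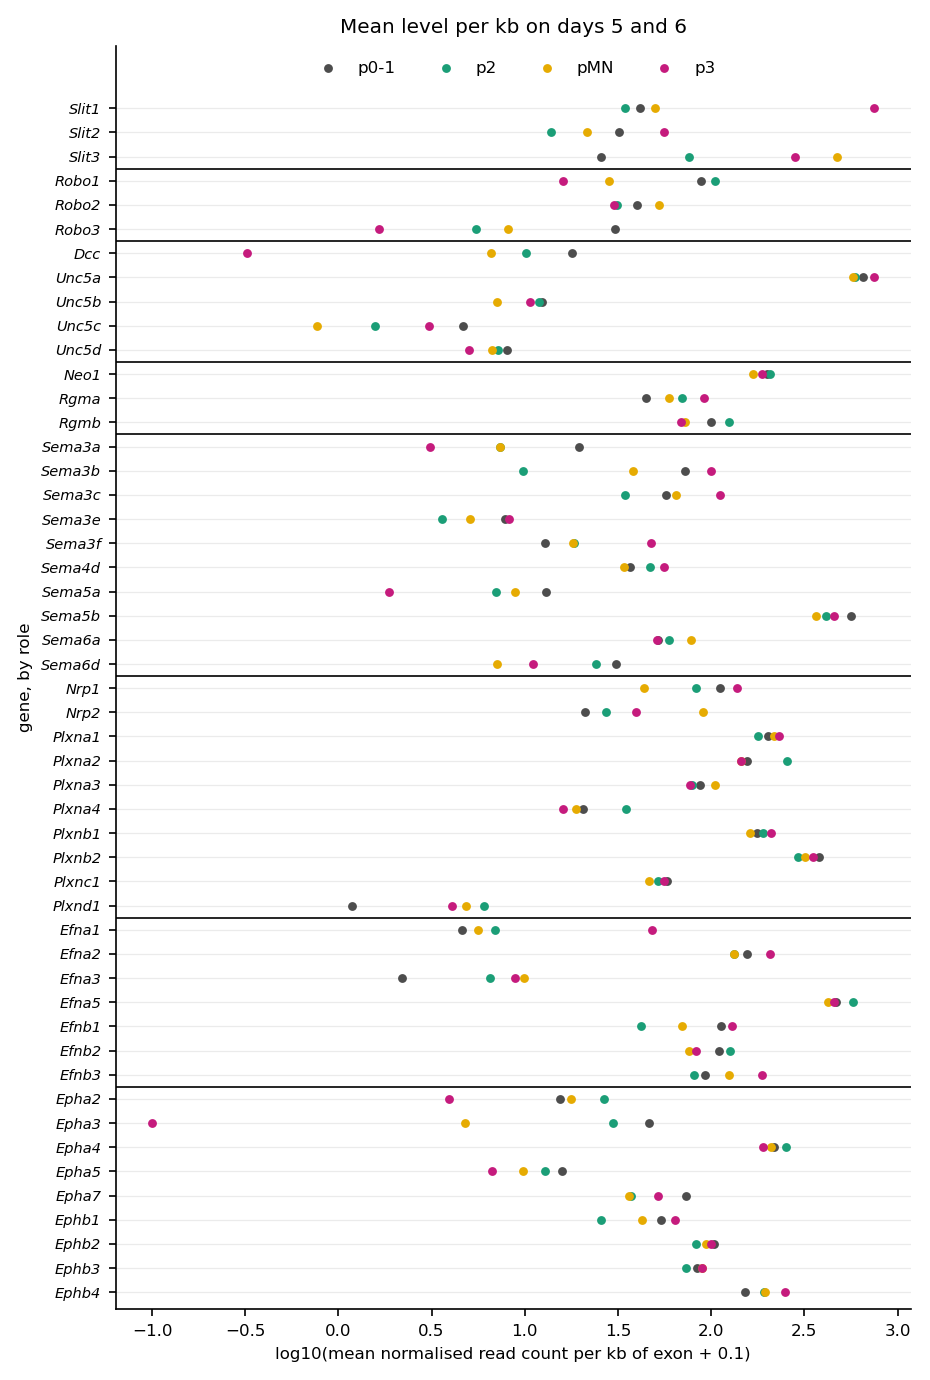
Each point is the mean level of 1 gene in 1 cell type over the libraries of days 5 and 6, as log10 of the normalised read count per kb of exon plus 0.1. Genes are grouped by role. Slit1 in p3 (752 per kb) stands far to the right of the other cell types, whereas Unc5a lies at 575 to 745 per kb in all 4.

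The first question was which guidance genes differed between progenitor types. A gene was called when limma gave a Benjamini-Hochberg adjusted p under 0.01 over all 13964 genes tested and the means differed by more than 2-fold. Of the 50 genes, 7 were called between at least 1 pair of cell types: the ligands Slit1, Slit3 and Sema3b and the receptors Robo1, Robo3, Dcc and Epha3. No semaphorin receptor (0 of 10), ephrin (0 of 7), RGM or neogenin gene (0 of 3) was among them, where each comparison called between 0.107% and 1.43% of all genes, so these counts say little about the families.

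Slit1 separated p3 from every other type. In p3 it was at 1882 in the lowest library, 3967 at the median and 8301 in the highest. The corresponding values were 0, 189 and 1090 in pMN, 1.18, 170 and 427 in p2, and 0, 193 and 735.5 in p0-1. Each of the 11 p3 libraries was above every library of the other types. The log2 difference by limma was 4.73 (SE 0.737, adjusted p = 3.22e-05) against pMN, 5.03 (SE 0.716, adjusted p = 3.28e-06) against p2 and 5.20 (SE 0.716, adjusted p = 1.06e-06) against p0-1. Against pMN, Slit1 was the 1 guidance gene called of 50, where 0.695% of all genes were called. On day 4 the p3 mean was 829 and its libraries overlapped with those of pMN, p2 and p0-1. Slit1 then averaged 2767 in p3 on day 5 and 5350 on day 6. Slit1 lies at chr19:41600257-41743856 on the minus strand (mm10). The call against each of the other types was kept under every alternative and with any library left out.

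Slit3 set p3 and pMN apart from p2 and p0-1. Its lowest, median and highest values were 857, 1377 and 8873 in pMN and 541, 1448 and 2120 in p3. They were 49.2, 226 and 1705 in p2 and 18.2, 123 and 273 in p0-1. All p3 and pMN libraries were above all p0-1 libraries, whereas p2 overlapped with both. Limma gave p3 a log2 difference of 2.50 from p2 (SE 0.351, adjusted p = 2.56e-06) and 3.76 from p0-1 (SE 0.351, adjusted p = 3.82e-11). For pMN the difference was 3.03 from p2 (SE 0.351, adjusted p = 1.75e-07) and 4.30 from p0-1 (SE 0.351, adjusted p = 5.96e-13). Limma did not call p3 against pMN, at -0.54 (SE 0.361, adjusted p = 0.619). It also did not call p2 against p0-1, at 1.26 (SE 0.34, adjusted p = 0.0712, limma). The latter difference was well above its SE, so the missed call does not show that p2 and p0-1 were level. At 100 nM SAG, the only concentration that p2 shared with p3 and pMN, limma gave Slit3 a log2 difference of 1.53 for p3 against p2 (SE 0.481, adjusted p = 0.0629) and 1.76 for pMN against p2 (SE 0.481, adjusted p = 0.229). Neither was called. On day 6, p2 at 100 nM held Slit3 at 1705, 449.9 and 748.7, and p2 at 10 nM at 187.1, 131.2 and 303.7. Because p0-1 shared no concentration with p3 or pMN, cell type and SAG cannot be told apart in any difference between them.

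**Figure D2:**
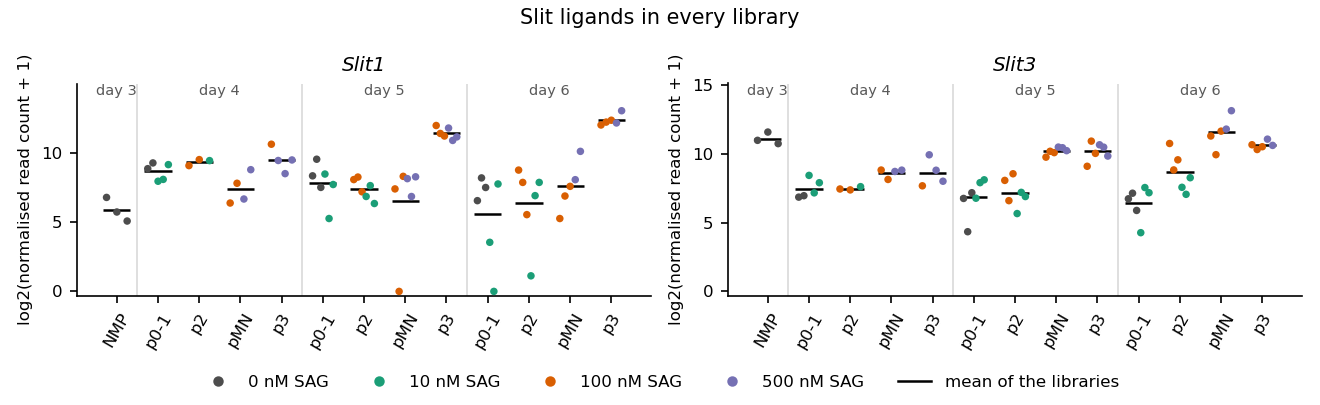
Slit1 (left) and Slit3 (right) in every library, as log2 of the normalised read count plus 1, by day and cell type. Colours give the SAG concentration and bars the mean of the libraries. Slit1 in p3 is at 1882 or more on days 5 and 6, above all other libraries of those days, and Slit3 is high in both p3 and pMN.

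Markers of the floor plate, the midline cells ventral to p3, were high in p3 together with Slit1. The summed level of Shh, Foxa2, Spon1, Ntn1 and Foxj1 over days 5 and 6 was 3293 to 21330 in p3, against 1139 to 3132 in pMN, 1080 to 3733 in p2 and 474.5 to 2891 in p0-1. The 5 weighed unequally: over days 5 and 6 the p3 mean was 4898 for Ntn1 and 21.7 for Foxj1. Foxa2 is also among the p3 markers summed above. In p3 on day 6 none of the 5 was at 0 in every library. Shh and Foxa2 were at 0 on day 6 in all p2 and p0-1 libraries, and in p3 Shh reached 132.7 to 1335. In pMN, with the highest mean Slit3 level of the 4 types, the marker sum overlapped with that of p2 and p0-1. The study compared its cultures with floor plate cultures and reported that floor plate markers were little expressed in its own, also on day 6. The part of floor plate cells in the Slit1, Slit3 and Sema3b values of p3 was not tested here.

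Of the Slit receptors, Robo1, the main repulsive receptor, had lower values in p3 than in p2 and p0-1. Its lowest, median and highest values were 0, 45.0 and 437.5 in p3, 29.2, 168 and 471 in pMN, 113, 504 and 2282 in p2, and 37.6, 614 and 1401 in p0-1. The ranges overlapped. Limma gave p3 a log2 difference of -3.26 from p2 (SE 0.561, adjusted p = 0.000148) and -3.18 from p0-1 (SE 0.561, adjusted p = 0.000147). Against pMN it was -1.64 (adjusted p = 0.176, limma) and was not called. Robo1 in p3 was at 0 to 139.5 at 100 nM SAG and at 26.89 to 437.5 at 500 nM. In pMN at 500 nM it was at 29.24 to 223.2. On day 6 at 500 nM p3 held 437.5 and 324.9, and pMN 223.2 and 112.1. At 100 nM SAG alone Robo1 was still called between p3 and p2, at -4.31 (SE 0.77, adjusted p = 0.000537, limma). Fitted on the compared libraries alone, Robo1 was no longer called against p2 or p0-1.

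Robo3, the receptor that keeps commissural axons from responding to Slits before they cross, was at 1.61 to 15.5 in p3, with a median of 7.17. In p0-1 it was at 4.22 to 562 with a median of 92.5. The p0-1 range was carried by day 6, where the 0 nM libraries held 561.9, 303.3 and 373.1 and the 10 nM libraries 85.67, 120.7 and 100.2, all above every p3 library. Limma gave p3 a log2 difference of -3.18 (SE 0.629, adjusted p = 0.000821). After quantile normalisation the adjusted p was 0.0394 and Robo3 was not called. Robo3 was low in pMN and p2 as well as in p3. In pMN a single day 5 library reached 313.3 and the others lay at 4.605 to 27.88. In p2 a single day 6 library reached 171.0 and the others lay at 1.578 to 22.07. Limma called Robo3 for p3 against p0-1 alone. Robo2 was called between no pair of types.

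Dcc, the netrin receptor that attracts commissural axons, was at 0 in 10 of 11 p3 libraries and at 25.53 in the other. Its lowest, median and highest values were 0, 177 and 419 in p0-1, 0, 46.2 and 332 in p2, and 0, 0 and 407 in pMN. Each of these ranges reached down to 0, so the groups overlapped. Limma gave p3 log2(value + 1) differences of -6.41 from p0-1 (SE 0.924, adjusted p = 2.82e-06) and -3.86 from p2 (SE 0.924, adjusted p = 0.00779). It gave pMN -4.23 from p0-1 (SE 0.924, adjusted p = 0.00406). In p2 on day 6 the 10 nM libraries held 254.1, 332.1 and 299.5, and the 100 nM libraries 0, 2.657 and 0. At 100 nM alone the difference between p3 and p2 was -0.58 (SE 1.27, adjusted p = 0.868, limma). The Dcc call between p3 and p2 was lost with 18 of 23 libraries left out in turn, with adjusted p up to 0.0247, and also with no filter, with the compared libraries alone and with edgeR. That between pMN and p0-1 was lost with 6 of 23 libraries, with adjusted p up to 0.0141, and with the compared libraries alone, edgeR and DESeq2, with adjusted p up to 0.125.

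Epha3, an Eph receptor that motor neurons of the medial column are known to carry, was at 0 in all 11 p3 libraries. Its lowest, median and highest values were 0, 116 and 478 in p2, where 5 of 12 libraries were at 0, and 0, 241 and 1009 in p0-1, where 4 of 12 were at 0. The pMN values were 0, 0 and 158. On the log2(value + 1) scale, limma gave p3 differences of -5.49 from p0-1 (adjusted p = 0.00156) and -4.66 from p2 (adjusted p = 0.00981). Set against a floor of 3 reads, the mean value was at least 102-fold higher in p0-1 and 65.2-fold higher in p2. These ratios of means are carried by the libraries with high values and are not bounds on the tested differences. The call against p2 was lost with 18 of 23 libraries left out in turn, with adjusted p up to 0.0304, and at 100 nM SAG alone, where the adjusted p was 0.397. The call against p0-1 was lost with the compared libraries alone (adjusted p = 0.0233). Genes detected per library had medians of 12474 in p3, 12991 in pMN, 12638 in p2 and 12632 in p0-1. Without the 4 libraries with the fewest genes detected, Dcc (adjusted p = 0.0229, limma) and Epha3 (adjusted p = 0.0117, limma) were not called between p3 and p2, and both were still called between p3 and p0-1.

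Sema3b, a secreted semaphorin, was higher in p3 than in p2. It was at 3.47, 269 and 1207 (lowest, median, highest) in p3 and at 0, 7.58 and 172.5 in p2, where 6 of 12 libraries were at 0. In p0-1 it was at 0, 262 and 712.3 and in pMN at 0, 95.5 and 738.4, so p3 overlapped with all 3 types. The log2 difference between p3 and p2 by limma was 4.97 (SE 1.10, adjusted p = 0.00373), and 6.51 (SE 1.50, adjusted p = 0.00975) at 100 nM SAG alone. Against p0-1 it was 0.90 (SE 1.10, adjusted p = 0.761, limma) and against pMN 3.08 (SE 1.13, adjusted p = 0.206, limma), and neither was called. The call against p2 was lost with the compared libraries alone, without day 5 p2 at 100 nM replicate 1 (4.56, adjusted p = 0.0107) and without day 6 p3 at 500 nM replicate 3 (4.70, adjusted p = 0.0204).

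**Figure D3:**
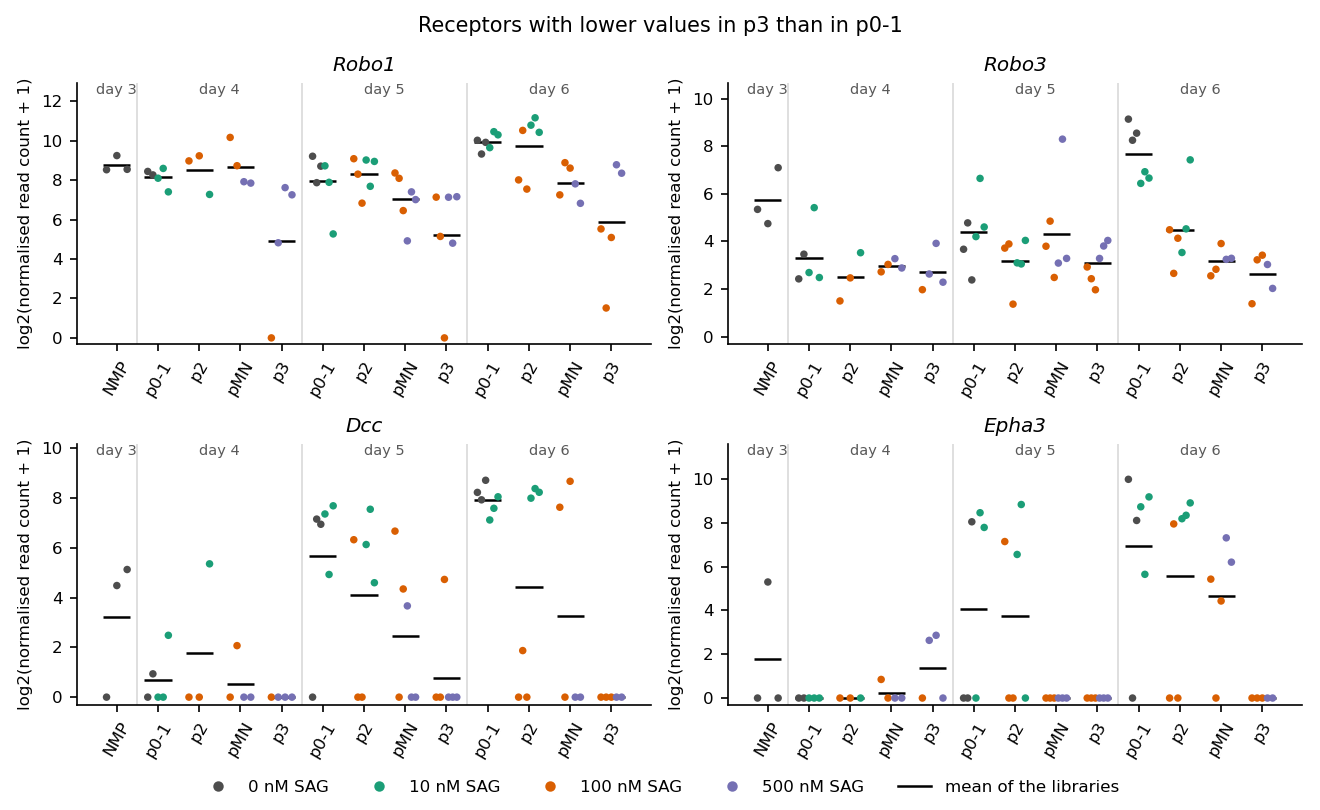
Robo1, Robo3, Dcc and Epha3 in every library, as log2 of the normalised read count plus 1, by day and cell type, coloured by SAG concentration, with bars at the mean. Dcc is at 0 in 10 of 11 and Epha3 in all 11 p3 libraries of days 5 and 6, and Robo3 is highest in p0-1 on day 6.

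For these types as wholes, 6 of 50 guidance genes were called between p3 and p2 (3 higher, 3 lower in p3), against 1.27% of all genes. Between p3 and p0-1, 6 were called (2 higher, 4 lower), against 1.43%. Between pMN and p2 Slit3 alone was called, against 0.107%, and between pMN and p0-1 Slit3 and Dcc were called, against 0.96%. Between p2 and p0-1 none was called by limma, against 0.322%. An unadjusted p under 0.05 was found for 13, but the share of all genes at that threshold is not given here, so that count says little. For that pair edgeR called 0 and DESeq2 called 6, but the share of all genes called by these methods was not counted. The lowest adjusted p there was that of Sema3b (0.0556, limma), at a log2 difference of -4.07. The median log2 difference over the guidance genes ranged from -0.338 (pMN against p0-1, all genes 0.00833) to 0.195 (p3 against pMN, all genes -0.0881). The 6 comparisons share libraries and are not independent of each other.

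**Figure D4:**
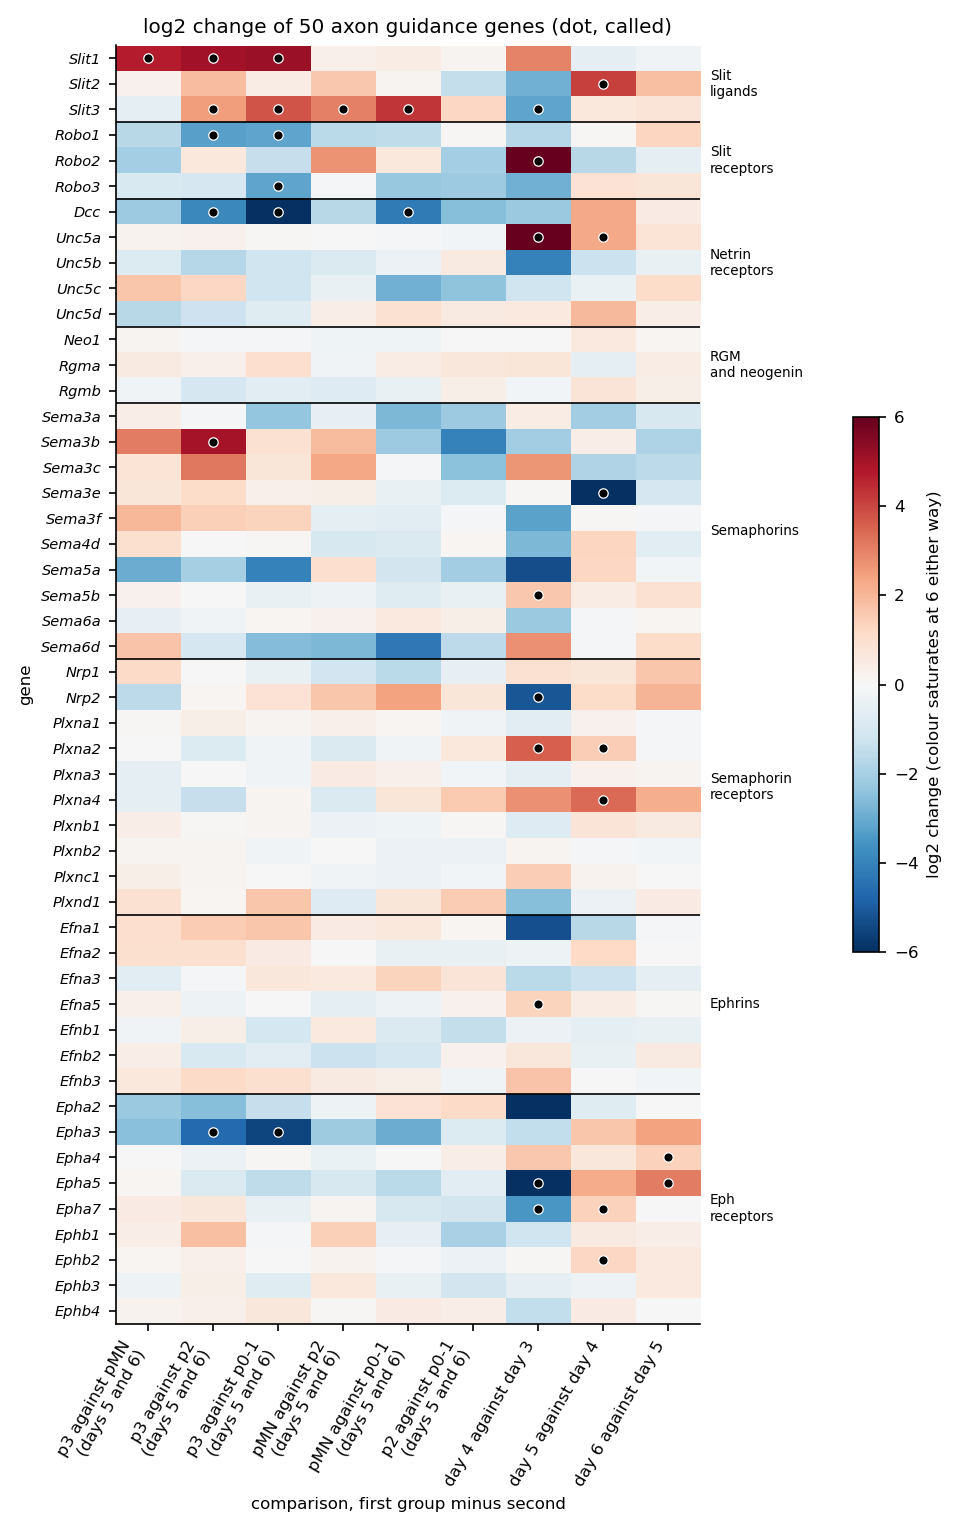
The log2 change of the 50 guidance genes (rows, grouped by role) in 9 comparisons (columns), first group minus second. Colour runs from blue (lower) to red (higher) and saturates at 6 either way, and a dot marks a call. Dots for cell types fall on 7 genes and dots for days on 14.

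Promoter sequences (RefSeq, GRCm38.p6, the 250 bases before the annotated start, written 5′ to 3′ on the gene's strand) were available for 40 of the 50 genes. They are shown for a ligand shared by p3 and pMN, for a receptor higher in p0-1 than in p3 and for the receptor with the highest level. Capitals mark a match to 1 of 4 factor cores, searched on both strands: GLI (ACCACCC), forkhead (TGTTTAC), NKX2 (TNAAGTG) and paired homeodomain (TAATTA).
Slit3, chr11:35121206-35121455, plus strand: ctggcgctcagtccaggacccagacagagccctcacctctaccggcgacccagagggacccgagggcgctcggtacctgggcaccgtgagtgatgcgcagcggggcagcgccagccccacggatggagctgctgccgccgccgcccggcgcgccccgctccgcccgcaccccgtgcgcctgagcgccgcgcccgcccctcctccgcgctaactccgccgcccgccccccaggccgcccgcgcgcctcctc
Robo3, chr9:37433176-37433425, minus strand: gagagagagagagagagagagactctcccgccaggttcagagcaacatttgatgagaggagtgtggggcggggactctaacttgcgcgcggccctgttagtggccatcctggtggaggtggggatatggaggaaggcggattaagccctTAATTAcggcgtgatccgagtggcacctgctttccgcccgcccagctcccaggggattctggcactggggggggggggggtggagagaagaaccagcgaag
Unc5a, chr13:54949161-54949410, plus strand: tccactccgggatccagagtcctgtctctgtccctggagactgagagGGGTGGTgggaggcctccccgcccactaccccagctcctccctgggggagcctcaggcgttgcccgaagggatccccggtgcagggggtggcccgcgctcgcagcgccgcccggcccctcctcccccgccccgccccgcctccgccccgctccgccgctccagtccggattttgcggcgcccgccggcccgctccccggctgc
The Slit3 window held none of the 4 cores and had a GC content of 78.8% with 35 CpG. The Robo3 window held TAATTA 101 bases before the start, as did 4.9% of all 27025 promoters somewhere in the window. The Unc5a window held the GLI core on the opposite strand 203 bases before the start, as did 3.86% of all promoters. Neither match overlapped another core. Over the 40 genes, 1 held the GLI core, 0 the forkhead core (3.09% of all promoters), 1 the NKX2 core (Efna3, against 10.0%) and 3 the homeodomain core (Robo3, Efna1 and Epha5).

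The next question was how guidance genes changed with time. Of the 50 genes, 14 were called between successive days, and Slit3 alone was called both between days and between cell types. From NMP on day 3 to NPs on day 4, 9 of 50 were called (5 higher, 4 lower), against 3.49% of all genes. The median log2 change was -0.553 over the guidance genes and -0.40 over all genes, and quantile normalisation moved the median of all genes to -0.00588. Each of the 9 changes was called in the same direction after that normalisation.

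Among the genes that rose, Unc5a was at 0 in all 3 NMP libraries and at 52.84, 384.5 and 1433 (lowest, median, highest) on day 4. Robo2, another Slit receptor, was also at 0 in NMP and at 348, 737 and 1380 on day 4. Against a floor of 3 reads, Unc5a rose at least 155-fold (adjusted p = 6.65e-23, limma) and Robo2 at least 233-fold (adjusted p = 7.08e-07, limma). Plxna2, a plexin that serves semaphorins of classes 3 and 6, went from 29.8, 50.3 and 101.3 in NMP to 186, 737 and 1420 on day 4, a log2 change of 3.60 (SE 0.362, adjusted p = 8.77e-11, limma). In these 3 genes no day 4 library overlapped with NMP. Sema5b rose by 1.61 (SE 0.33, adjusted p = 0.000623, limma), from 258 to 382 in NMP to 597 to 1976 on day 4. Efna5 rose by 1.34 (SE 0.291, adjusted p = 0.00137, limma) from 513 to 930 in NMP to 901, 1745 and 2970 on day 4, the only gene of the 5 with overlap.

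Among the genes that fell, Epha5 went from 224 to 656 in NMP to 0, 0 and 53.0 (lowest, median, highest) on day 4, a log2(value + 1) change of -7.43 (SE 1.52, adjusted p = 0.000636, limma). Nrp2, a co-receptor of class 3 semaphorins, went from 1383 to 1902 in NMP to 0, 89.4 and 289, a change of -5.13 (SE 1.09, adjusted p = 0.00099, limma). Epha7 went from 1169 to 1873 in NMP to 0, 261 and 833, a change of -3.47 (SE 0.541, adjusted p = 5.7e-06, limma). Slit3 went from 1693, 1997 and 3030 in NMP to 113.8 to 964.4, a change of -3.15 (SE 0.531, adjusted p = 2.65e-05, limma). All 4 were lower in every day 4 library than in any NMP library. Leaving out NMP replicate 1 ended the calls of Nrp2 (adjusted p = 0.0109) and Efna5 (0.0463), leaving out replicate 2 those of Nrp2 (0.0166), Efna5 (0.0207) and Sema5b (0.0226), and leaving out replicate 3 that of Epha5 (0.0127, limma throughout).

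From day 4 to day 5, averaged over the 8 pairs of SAG concentration and cell type, 7 of 50 guidance genes were called (6 higher, 1 lower), against 4.3% of all genes. Unc5a rose again, to 1090, 1831 and 2641, a log2 change of 2.25 (SE 0.21, adjusted p = 2.28e-11, limma). Plxna2 rose to 1131, 1833 and 3180, a change of 1.47 (SE 0.192, adjusted p = 1.64e-07, limma). Ephb2, an Eph receptor for B-class ephrins, rose from 204, 303 and 527 to 417, 802 and 1380, a change of 1.23 (SE 0.181, adjusted p = 1.94e-06, limma). Plxna4, the plexin that carries Sema3a signals with Nrp1, rose from 0, 1.94 and 159.8 to 0, 100.2 and 454.2, a log2(value + 1) change of 3.42 (SE 0.771, adjusted p = 0.00143, limma). These 4 were higher on day 5 in 8 of 8 conditions.

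Slit2 was at 0, 0.453 and 168 on day 4 and at 0, 77.9 and 678 on day 5, a log2(value + 1) change of 4.1 (SE 0.731, adjusted p = 5.58e-05, limma) that was positive in 7 of 8 conditions. On day 6 Slit2 was at 400.5 to 2293 in p3, 50.2 to 985.6 in pMN, 14.12 to 714.6 in p2 and 0.7581 to 1493 in p0-1. These ranges overlapped, and Slit2 was called between no pair of types. Sema3e, the class 3 semaphorin that binds Plxnd1 without a neuropilin, fell from 0.91, 752 and 2905 on day 4 to 0, 1.44 and 310.6 on day 5. Its change was -6.51 (SE 0.90, adjusted p = 5.39e-07, limma), lower in 8 of 8 conditions, and in p2 on day 6 all libraries were at 0. Epha7 rose by 1.4 (SE 0.287, adjusted p = 0.000419, limma), from 0, 261 and 833 to 86.9, 356 and 841. Its ranges overlapped widely, 15 of 24 day 5 libraries were above the day 4 median, and the call was lost after quantile normalisation.

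From day 5 to day 6, 2 of 50 guidance genes were called, both higher, against 0.852% of all genes. Epha4, a receptor for both ephrin classes that steers limb motor axons, rose from 119, 731 and 1531 to 856, 1816 and 4374. The log2 change was 1.38 (SE 0.245, adjusted p = 0.000219, limma). Epha5 rose from 0, 31.1 and 96.4 to 0, 128 and 395, a log2(value + 1) change of 3.08 (SE 0.712, adjusted p = 0.00561, limma). Both were higher in 8 of 8 conditions, with overlapping ranges. The Epha5 call was lost with 7 of 46 libraries left out in turn, with adjusted p up to 0.0128. Sema5b (0.89, adjusted p = 0.00013, limma) and Unc5a (0.80, adjusted p = 0.00557, limma) passed the test but changed by less than 2-fold. On day 6 Unc5a averaged 3206 in p0-1, 2959 in p2, 2880 in pMN and 4399 in p3.

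**Figure D5:**
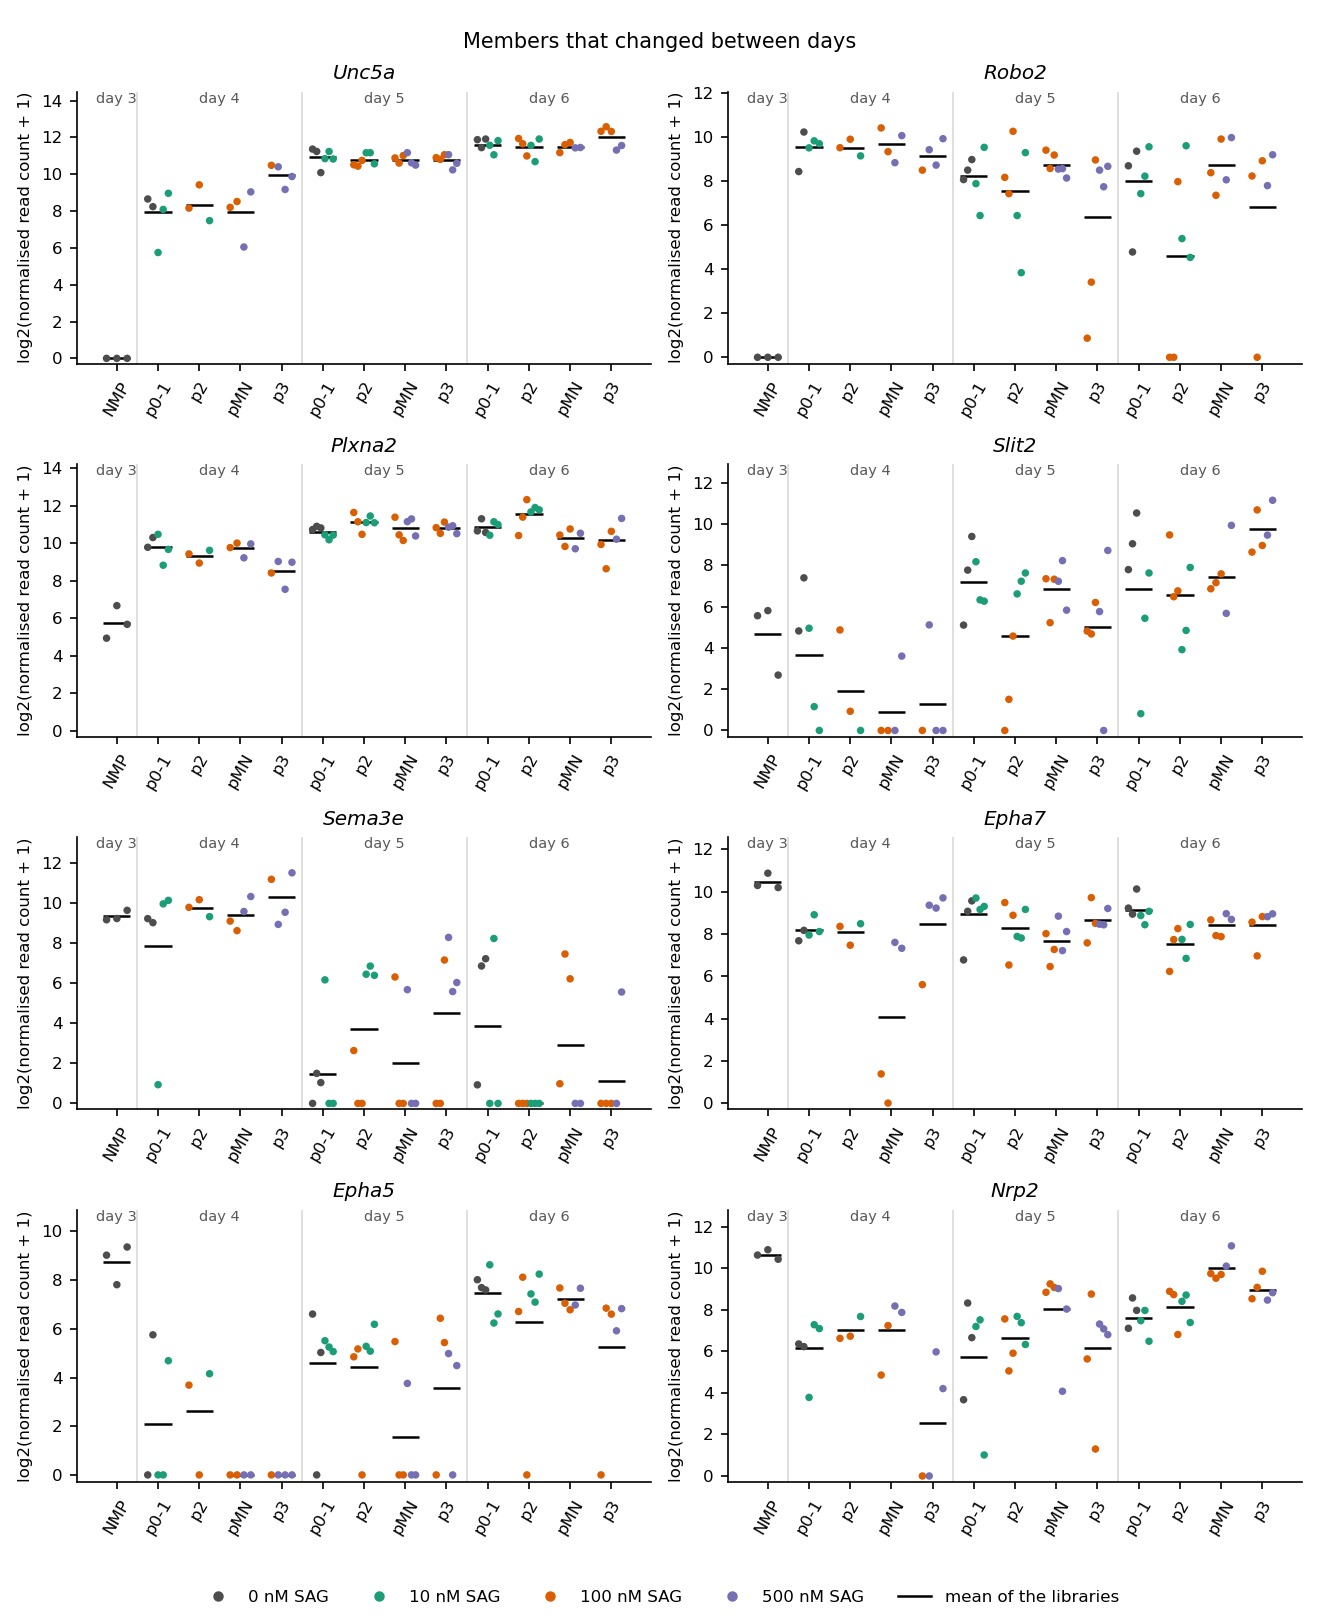
A selection of 8 guidance genes in every library, as log2 of the normalised read count plus 1, by day and cell type, coloured by SAG concentration, with bars at the mean. Unc5a and Robo2 leave 0 after day 3, Sema3e drops after day 4, and Epha5 falls on day 4 and is higher again on day 6.

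The sum of markers of newly born neurons rose with the last step, though not every marker did. Mean levels of Ina in p3, of Snap25 in p2 and of Nefm in p2 and pMN were lower on day 6 than on day 5. The summed level of 10 such genes (Tubb3, Elavl3, Elavl4, Stmn2, Dcx, Nefl, Nefm, Ina, Snap25 and Syt1) had medians of 848 in p0-1, 1948 in p2, 2027 in pMN and 1761 in p3 on day 5. On day 6 these were 2492, 4898, 5049 and 3829. No marker was at 0 in every library of a cell type on day 6. The sum was 3366 to 3718 in NMP, above the day 5 median of every cell type, and 974.9 to 2168 on day 4. A high sum was thus not confined to the later days. The part of neurons in the rise of Epha4, Epha5 and the other genes that changed with days was not tested.

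SAG concentration was compared within each cell type over days 5 and 6, and no guidance gene was called by limma in any of the 4 comparisons. The shares of all genes given here are those of limma at the adjusted threshold, and none was counted for edgeR or DESeq2. None is given for an unadjusted p under 0.05, so those counts cannot be set against a share. In p3 at 500 against 100 nM, 0.0286% of all genes were called, 5 guidance genes had an unadjusted p under 0.05, edgeR called 0 and DESeq2 called 5. Robo1 came nearest at 3.39 (SE 0.816, adjusted p = 0.0807, limma). In pMN at 500 against 100 nM, 0.0% of all genes were called, 5 guidance genes had an unadjusted p under 0.05, edgeR called 0 and DESeq2 called 3. Sema6d stood at -5.46 and Dcc at -3.94, both with an adjusted p of 0.88 by limma.

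In p2 at 100 against 10 nM, 0.0358% of all genes were called, 5 guidance genes had an unadjusted p under 0.05, edgeR called 0 and DESeq2 called 5. Dcc stood at -5.78 (SE 1.27, adjusted p = 0.05, limma), the lowest adjusted p of the guidance genes in that comparison, and Slit3 at 1.62 (adjusted p = 0.248, limma). In p0-1 at 10 against 0 nM, 0.0143% of all genes were called, 1 guidance gene had an unadjusted p under 0.05, and edgeR and DESeq2 each called 0. The median SE over the guidance genes was 1.05 in p3 and pMN and 0.989 in p2 and p0-1, so 1 SE was itself about a 2-fold change.

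The change from day 4 to day 6 was also compared between p3 and the mean of the other types. Nrp1, a co-receptor of class 3 semaphorins, was the 1 guidance gene called of 50, where 4.1% of all genes were called. Of those 573 genes, 568 had the higher change in p3 and 5 the lower. The median difference over all genes was 0.341, and -0.0146 after quantile normalisation. In p3 on day 4 Nrp1 was at 0 in the lone library at 100 nM and at 336.6, 41.56 and 147.6 at 500 nM. On day 6 it was at 1985, 1188 and 755.2 at 100 nM and at 1685 and 1825 at 500 nM, all above the day 4 libraries. The log2(value + 1) change was 7.01 in p3, 2.00 in pMN, 1.07 in p2 and -0.52 in p0-1. The difference was 6.16 (SE 1.50, adjusted p = 0.0044, limma). Without the lone day 4 library at 100 nM it was 2.65 (SE 1.49, adjusted p = 0.889, limma), and Nrp1 was not called.

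The other 29 guidance genes were called in none of the 14 comparisons, but the share of all genes called in none was not counted. These 29 included the netrin receptors Unc5b, Unc5c and Unc5d. Neogenin (Neo1) and the RGM genes Rgma and Rgmb also belonged here, with Neo1 means of 1240 to 1520 over the 4 cell types on days 5 and 6. Of the semaphorins they were Sema3a, Sema3c, Sema3f, Sema4d, Sema5a, Sema6a and Sema6d, and of the plexins Plxna1, Plxna3, Plxnb1, Plxnb2, Plxnc1 and Plxnd1. Of the ephrins they were Efna1, Efna2, Efna3, Efnb1, Efnb2 and Efnb3, and of the Eph receptors Epha2, Ephb1, Ephb3 and Ephb4. Missing a call does not show that a gene stayed level. Epha2 was at 1491 to 2614 in NMP and at 0, 43.44 and 275.1 on day 4, a log2(value + 1) difference of -6.77 (SE 1.90, adjusted p = 0.0189, limma), with no overlap. Unc5a and Rgma overlap exons of a gene on the opposite strand (Hk3 and A730056A06Rik), and the strand setting of the counting was not given in the sources used here.

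Other genes of the pathways came from lists that these 50 do not include. Of 27 further family members 20 were tested. Ntn1, the netrin ligand of Dcc and Unc5 receptors, was at 2649 to 9795 in p3, 754.2 to 2019 in pMN, 730.5 to 2922 in p2 and 418.9 to 2493 in p0-1. Limma gave p3 log2 differences of 2.07 (adjusted p = 2.45e-07), 1.78 (adjusted p = 1.92e-06) and 1.93 (adjusted p = 1.85e-07) from these types. Ntn1 is also one of the floor plate markers above. Of the 20, 1 was called between p3 and pMN, 2 between p3 and p2 and 3 between p3 and p0-1. The shares of all genes called were 0.695%, 1.27% and 1.43%. Ntn1 was among the called genes each time, and the others, Flrt2 and Epha10, were lower in p3. Of 41 intracellular effectors of guidance receptors 40 were tested. Among them Srgap3, a GTPase-activating protein that binds Robo receptors, was higher in p3 (1.56), pMN (1.69) and p2 (1.66) than in p0-1, with adjusted p of 0.00636, 0.00406 and 0.00833 by limma. In each of these comparisons Srgap3 was the 1 effector called of 40, against 1.43%, 0.96% and 0.322% of all genes.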

How the data were processed

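Bulk RNA-seq of fixed, sorted cells was made with SMART-Seq HT and Nextera XT. The study's methods state an nf-core pipeline with STAR, the mm10 genome and featureCounts over refGene, and libraries excluded on quality. The deposited values are a normalised signal that the authors made by dividing each library's read counts by 1 size factor. All 834400 values above 0 (100.0%) were whole multiples of the library's value of 1 read within 0.001.

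Limma 3.58.1 (R 4.3.3) was fitted with its mean-variance trend on log2(value + 1), over the 13964 of 25239 genes with a mean of at least 10, with 25 group means in 1 model of all 65 libraries. On this scale the change of a gene low in every library comes out too small, and libraries at 0 can make a change larger than the ratio of the group means. Comparisons averaged group means, and a call required an adjusted p under 0.01 and more than 2-fold. Alternatives were a pseudocount of 10, no filter, a minimum mean of 100, quantile normalisation, a replicate block, the compared libraries alone, the shared SAG concentration alone, edgeR 4.0.16 (TMM) and DESeq2 1.42.0 on the recovered reads, and each library left out. Leaving out the 4 libraries with the fewest genes detected was added after seeing the data. A gene at 0 throughout a group was given a floor of 3 reads.

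Genes called between cell types or days are given in full, and the rest by range and count. The genes were set by family name, and this set, the gene lists and the tests were chosen with earlier results of these data known. Of the other lists, 2 genes are not reported here. The fitting steps were tested on simulated data. Replicates were independent differentiations of 1 cell line, so p-values measure the spread between these within groups. Libraries of different groups were taken as independent, and a culture that they shared was allowed for in the replicate block alone.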

Additional observations from a re-analysis of the deposited data

Results flagged for a closer look

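The change of Nrp1 from day 4 to day 6 differed between p3 and the other cell types by 6.16 on the log2(value + 1) scale (SE 1.50, adjusted p = 0.0044, limma), by a test of the difference itself. The value was 2.65 (SE 1.49, adjusted p = 0.889) without the day 4 p3 library at 100 nM (replicate 3), which held Nrp1 at 0, had the fewest genes detected of all 65 libraries (9718) and was the only library of its group. The call was also lost without day 4 p3 at 500 nM replicate 2 (5.76, adjusted p = 0.0121), day 6 p3 at 500 nM replicate 1 (6.19, adjusted p = 0.0133) and day 6 p3 at 500 nM replicate 3 (6.13, adjusted p = 0.0149). After quantile normalisation it was 4.93 (adjusted p = 0.0739). Without the 4 libraries with the fewest genes detected the difference was 2.83, and Nrp1 was not called. The part of the low gene detection in this result was not tested beyond that.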

How the results depend on the processing

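Of the 35 calls of guidance genes none reversed, and 25 were kept whichever library was left out. Of these, 17 were also kept under every alternative that tested them. Calls lost numbered 0 with a pseudocount of 10, 2 with no filter, 3 after quantile normalisation and 9 with the compared libraries alone. They numbered 4 at the shared SAG concentration, 3 with edgeR, 1 with DESeq2 and 3 without the 4 libraries with the fewest genes detected. The shared concentration was tested only for p3 against p2, pMN against p2 and p2 against p0-1, which held 6, 1 and 0 of the calls. With a minimum mean of 100 the number of calls lost was 0. Robo3, Dcc, Epha3 and Epha5 were not tested there, so their calls could not be lost. Causes were not tested.

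Shares of all genes called were counted for the main limma fit alone, so the counts in this section cannot be set against those shares. DESeq2 called 5 guidance genes for p3 against pMN, 11 for p3 against p2, 9 for p3 against p0-1, 7 for pMN against p2, 8 for pMN against p0-1 and 6 for p2 against p0-1. It called 18 for day 4 against 3, 17 for day 5 against 4, 9 for day 6 against 5, and 5, 3, 5 and 0 for SAG in p3, pMN, p2 and p0-1. For the change from day 4 to day 6 in p3 it called 14. EdgeR called 1 for pMN against p0-1 and 1 for day 6 against 5. With the compared libraries alone the counts were 2 for p3 against p2, 4 for p3 against p0-1, 1 for pMN against p0-1, 1 for day 6 against 5 and 2 for the change in p3. At the shared concentration they were 3 for p3 against p2 and 0 for pMN against p2, the latter by limma. A minimum mean of 100, which tests fewer of the 50, gave 4 for p3 against p2, 3 for p3 against p0-1, 1 for pMN against p0-1, 1 for day 6 against 5 and 2 for the change in p3. A pseudocount of 10 gave 3 for pMN against p0-1, 4 for day 6 against 5 and 2 for the change in p3. Quantile normalisation gave 3, 3 and 0 for these. Without the 4 libraries, counts were 4 for p3 against p2, 2 for pMN against p2, 4 for day 6 against 5 and 0 for the change in p3. No filter gave 4 for p3 against p2.

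With 1 library left out, counts ran from 3 to 6 for p3 against p2 (lowest without day 5 p2 at 100 nM replicate 1 or day 6 p3 at 500 nM replicate 3), 1 to 3 for pMN against p0-1, 6 to 9 for day 4 against 3, 7 to 8 for day 5 against 4, 1 to 3 for day 6 against 5 and 0 to 3 for the change in p3. They stayed at 1 for p3 against pMN and pMN against p2, at 6 for p3 against p0-1, and at 0 for p2 against p0-1 and for SAG in p0-1. SAG gave 0 to 1 in p3 (1 without day 5 100 nM replicate 1), pMN (1 without day 6 500 nM replicate 1) and p2 (1 without day 6 100 nM replicate 2). Where a group kept a single library, it was assumed to vary like the others.

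The study sorted cell types from the same dish for its accessibility libraries and calls its RNA-seq samples paired. Libraries with the same replicate number may therefore share a differentiation, though the sources used here do not say so for each library. The main test took all libraries as independent. Deviations from group means correlated above 0.1 in 3 of 186 pairs of libraries with the same number (at most 0.107). The median was 0.0315 at the same SAG and 0.0336 at different SAG. It was lower for different numbers, at -0.0226 and -0.0167, where none exceeded 0.1. A small part shared by replicate number therefore remains possible. With a replicate block 7 genes were called for p3 against p2, 10 for day 4 against 3, 3 for day 6 against 5 and 3 for the change in p3, and 1 call, Epha3 for p3 against p2, was lost.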

Other observations

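Among the 20 tested further genes of the guidance families, Epha1 was lower on day 4 than in NMP (0 to 240.7 against 4378 to 9646, a log2 difference of -8.00, adjusted p = 0.000214, limma). Epha10 (2.85, adjusted p = 0.000212) and Sema6c (1.54, adjusted p = 0.00198) were higher on day 5 than on day 4. None was called between day 5 and day 6 or between SAG concentrations by limma. Of the 20, 1 was thus called for day 4 against day 3 and 2 for day 5 against day 4, against 3.49% and 4.3% of all genes.

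Among the 40 tested effectors, Dpysl2 and Dpysl5, which relay semaphorin signals to microtubules, were higher on day 4 than in NMP by 1.16 and 1.72 (adjusted p = 0.000648 and 3.97e-08, limma). Srgap3, Src and Vav2 were higher on day 5 than on day 4 by 1.77, 1.34 and 1.21 (adjusted p = 2.03e-05, 0.00764 and 0.001, limma), and Srgap3 was higher on day 6 than on day 5 by 1.29 (adjusted p = 0.00124, limma). Of the 40, 2, 3 and 1 were called in these successive steps, against 3.49%, 4.3% and 0.852% of all genes.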
